A study of Manihot esculenta with 4 samples.

Results

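In the leaves of 2 cassava cultivars, the genes that lie on genome sequences not yet placed on a chromosome were described across control and drought. They are the 751 of 27146 genes whose locus tag starts with MANES_S in at least 1 of 4 RNA sequencing libraries, and they were spread over 363 unplaced sequences. The other 26395 genes lay on 18 chromosomes, and no gene with a MANES_S tag lay there. Cassava, Manihot esculenta, is a tropical root crop. The libraries came from leaf RNA of the cultivars KU50 and Xinxuan048, each once under normal conditions (control) and once under drought stress. How long or severe the drought was, and how many plants went into a library, is not in the labels. Where values of a gene come in pairs below, the control value stands first and the drought value second.

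A genome assembly joins sequenced pieces into chromosomes with the help of genetic or physical maps. Pieces that cannot be anchored stay as unplaced sequences, and such pieces are often short, rich in repeats, or an alternative version of a stretch that the assembly already holds elsewhere. Genes on them are annotated and counted like any other, but a near-identical copy on a chromosome can share their fragments, and how such fragments were counted is not stated in the sources used here. The genes carried tags without names or descriptions, and 0 of the 751 tags matched the RefSeq gene table of cassava, so no function is given for any of them. Markers of leaf or of other cell types could not be checked for the same reason. No genome of the files' build was used here, so no sequence letters are shown.

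Levels are FPKM, fragment numbers corrected for transcript length and for the size of the library, as the authors deposited them. Absence from a library's file was read as 0 FPKM, and such a gene is called unlisted there. With 1 library per group there is no replicate, so differences between single libraries have no test. In whole leaves, fewer cells of a type and less RNA per cell cannot be told apart. Log2 ratios are of FPKM + 1, which understates differences of low genes, and "2-fold" means at least 1 on that scale. Counts of 2-fold differences cover genes that average 1 FPKM or more across the 4 libraries, which 474 of the 751 unplaced genes (63.1%) and 19269 of the 26395 chromosome genes (73.0%) passed. All 19743 genes that passed serve as the background.

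The unplaced genes were listed less often than chromosome genes, stood at lower levels and had shorter loci. In all 4 libraries, 570 of 751 (75.9%) were listed, against 22299 of 26395 chromosome genes (84.5%). KU50 control listed 675 of them, KU50 drought 671, Xinxuan048 control 641 and Xinxuan048 drought 670. Their median of mean FPKM over the libraries was 2.16, against 5.79 for chromosome genes. Their median locus span was 2304 bases, against 3127, and 59 spanned under 500 bases. The locus in the files can take in several overlapping genes: 31 unplaced genes shared one of 15 loci with another unplaced gene. Together the unplaced genes held 1.46% of all FPKM for KU50 control, 1.53% for KU50 drought, 1.48% for Xinxuan048 control and 2.11% for Xinxuan048 drought. Xinxuan048 drought stood apart here, and 6 genes described at the end held 28.6% of the unplaced FPKM of that library. Without these 6 genes its share was 1.51%, and the other shares were 1.43%, 1.50% and 1.46% in the same order.

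At the top of the range, 16 unplaced genes (2.13%) had a mean of at least 100 FPKM, against 3.24% of chromosome genes. MANES_S080400, on the unplaced sequence KV450819.1, bases 2087 to 3360, had the highest mean, with 880 and 858 FPKM for KU50 and 906 and 616 for Xinxuan048. MANES_S031800, on KV450525.1, bases 35002 to 37603, followed with 436 and 403 FPKM for KU50 and 581 and 349 for Xinxuan048. Both were lowest in Xinxuan048 drought and less than 2-fold apart in every pair of control and drought. MANES_S061400, on KV450678.1, bases 56881 to 58466, was lower under drought in both cultivars, with 581 and 92.7 FPKM for KU50 and 457 and 195 for Xinxuan048. MANES_S113100, which ranked second by mean, owed that rank to 2380 FPKM in Xinxuan048 drought, against 70.4 to 115 in the other libraries.

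Presence in one cultivar only was asked first. A gene was counted when it was listed in both libraries of one cultivar and in neither of the other, with no filter on low values. Of the 751 unplaced genes, 17 (2.26%) were listed in KU50 only, where the background over all 27146 genes was 1.36%. Only 4 (0.533%) were listed in Xinxuan048 only, close to the background of 0.542%. The excess in KU50 therefore came with no counterpart in Xinxuan048. By class of locus span, it was seen at shorter loci only. Under 500 bases, 6 of 59 unplaced genes (10.2%) were listed in KU50 only, against 5.11% of chromosome genes. From 500 to 1000 bases the shares were 4.81% and 3.14%, and in the next class 2.91% and 2.16%. In the class that ended at 4000 bases they were 1 of 216 and 83 of 8276. At 4000 bases and more they were 0 of 200 and 0.440%. Xinxuan048 control also had the fewest genes listed of all 4 libraries, and the part of depth in these counts was not tested.

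Most of these 21 genes were faint, and the share exceeded that of chromosome genes among the ones that were not. Among genes whose highest value was under 1 FPKM, 11 of 197 unplaced genes (5.58%) and 403 of 5457 chromosome genes (7.39%) were listed in one cultivar only. Among genes that reached at least 5 FPKM, they were 5 of 327 (1.53%) against 22 of 15662 (0.140%), and all 5 unplaced ones were KU50 genes. MANES_S026000, 441 bases on KV450498.1, bases 8222 to 8662, reached 11.99 and 9.11 FPKM for KU50. MANES_S028800, only 156 bases on KV450510.1, had 2.53 and 14.3 FPKM, values that few fragments can give at so short a locus. Neither was listed in Xinxuan048. The highest genes listed in Xinxuan048 only were lower: MANES_S001700 had 0.875 FPKM in control and 1.04 in drought, and MANES_S0724002 had 0.376 and 0.899. By locus span, the share was 13.6% of unplaced genes under 500 bases (8 of 59) against 6.88% on chromosomes. From 500 to 1000 bases it was 4.81% against 4.38%, and in the next class 4.07% against 3.12%. At longer loci the order turned. In the class that ended at 4000 bases the share was 1 of 216 (0.463%) against 1.38%. Of 200 unplaced genes of 4000 bases and more 0 were listed in one cultivar only, against 0.640% on chromosomes.

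Differences of level between the cultivars leaned to KU50 in control leaves but not under drought, and the share of unplaced genes was above that of all genes in each direction and condition. In control leaves, 68 of 474 unplaced genes (14.3%) lay 2-fold or more below KU50 in Xinxuan048, against a background of 6.96%, and 19 (4.01%) lay 2-fold or more above it, against 2.41%. Under drought, 43 (9.07%) were lower, against 4.19%, and 41 (8.65%) were higher, against 3.08%. The median was close to that of all genes: the log2 ratio of Xinxuan048 to KU50 had a median of -0.17 in control and -0.06 under drought, beside -0.13 and -0.08 over all genes. TMM scaling, a trimmed mean that centres the ratios, brought these to -0.01 and 0.02, and 0.03 and 0.00 over all genes. What was wider was the spread. The middle 80% of log2 ratios spanned 1.81 in control and 1.83 under drought, against 1.21 and 1.12 for chromosome genes. The balance of the 2 directions depended on the scale in part. Of the unplaced genes 2-fold apart, 21.8% in control and 48.8% under drought were higher in Xinxuan048 as deposited, and 29.8% and 52.5% with TMM.

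The pairs of control libraries and of drought libraries share no library, so a difference seen in both is measured in separate libraries. Whether those came from separate plants is not in the labels. In both conditions, 30 unplaced genes were 2-fold apart the same way, which is 6.33% of those that passed the filter, against 2.31% of chromosome genes. Of the 30, 21 were higher in KU50 (4.43%, background 1.58%) and 9 were higher in Xinxuan048 (1.90%, background 0.836%). The 21 made up 30.9% of the unplaced genes higher in KU50 in control and 48.8% of those under drought. For chromosome genes the like shares were 22.2% and 37.0%. No count among unplaced genes had a test of its own.

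**Figure D1:**
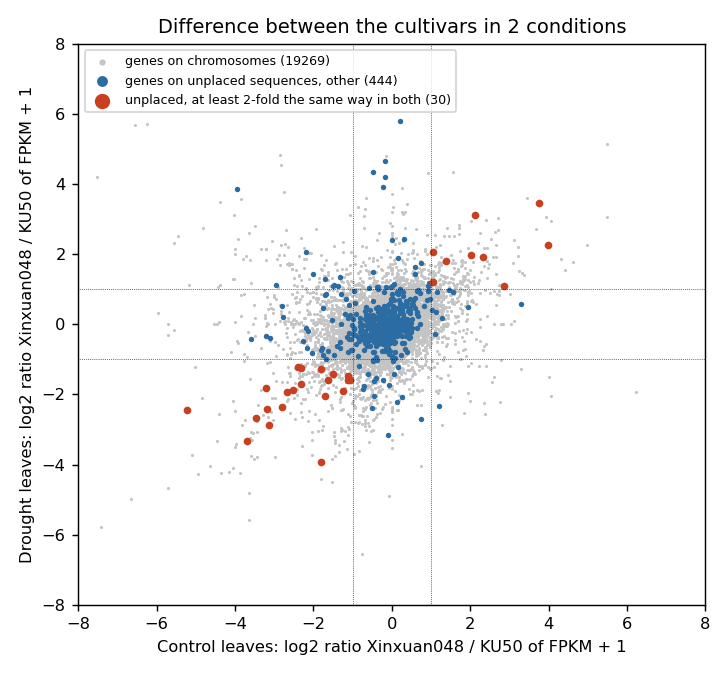
Log2 ratio of Xinxuan048 to KU50 (FPKM + 1) in control leaves on the x axis and in drought leaves on the y axis, 1 point per gene that averages 1 FPKM or more. Grey points are 19269 chromosome genes, blue points 444 unplaced genes, and red points the 30 unplaced genes at least 2-fold apart the same way in both conditions, 21 at the lower left (higher in KU50) and 9 at the upper right; dotted lines mark 2-fold.

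Among genes with at least 5 FPKM and 500 bases, MANES_S063600 and MANES_S108900 stood furthest towards KU50. MANES_S063600, on KV450691.1, bases 57938 to 59707, had 38.3 and 5.37 FPKM for KU50, against 0.0515 and 0.180 for Xinxuan048. Both KU50 values lay far above both Xinxuan048 values, with a shared log2 difference of -3.83 ± 0.73 (SE, 4 libraries; limma adjusted p = 0.222). MANES_S108900, on KV451979.1, bases 5252 to 5865, had 10.1 and 10.96 FPKM for KU50, was unlisted for Xinxuan048 control and stood at 0.879 FPKM for Xinxuan048 drought. MANES_S016300, on KV450463.1, bases 201486 to 205606, was the second furthest towards KU50 under drought. KU50 gave 9.99 and 11.2 FPKM there, against 0.251 and 0.679 for Xinxuan048.

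In the other direction, MANES_S091800, on KV451007.1, bases 10986 to 12458, had 107 and 169 FPKM for Xinxuan048, against 5.84 and 34.2 for KU50. Its shared log2 difference was 3.13 ± 0.45 (SE, 4 libraries; limma adjusted p = 0.205). MANES_S033900, on KV450534.1, bases 57235 to 58222, had 14.1 and 16.8 FPKM for Xinxuan048 against 2.46 and 1.04 for KU50. For both genes the lowest Xinxuan048 value was above the highest KU50 value. MANES_S110500, second highest in control, was 71.1 FPKM in Xinxuan048 and 6.31 in KU50 there, but 51.6 and 34.5 under drought, so it passed the 2-fold limit in control only.

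The cultivar effect common to both conditions was tested across all 19743 genes with limma, a linear model whose error for each gene borrows from genes of like level. That fit has 1 residual degree of freedom. Its p-value sets the differences in the 2 conditions against their mismatch, and does not measure the spread between plants. At a Benjamini-Hochberg adjusted p of 0.05, 0 of 474 unplaced genes passed, and 0% of all genes did. The smallest adjusted p among unplaced genes was 0.112, that of MANES_S111800. For Xinxuan048 it had 17.7 and 10.02 FPKM, against 0.388 for KU50 control, and KU50 drought did not list it. It was chosen after its values were seen. At an unadjusted p of 0.05, 94 of 474 unplaced genes (19.8%) passed limma's test, against 14.6% of all genes.

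Short loci and low levels go with wider ratios, and the unplaced genes have more of both, so the share was also read within classes. In each of 4 classes of mean FPKM, the share at least 2-fold apart between the cultivars in both conditions was higher among unplaced than among chromosome genes. From 1 to 3 FPKM it was 9 of 141 (6.38%) against 3.17%, from 3 to 10 FPKM 13 of 155 (8.39%) against 3.16%. From 10 to 30 FPKM it was 4 of 112 (3.57%) against 1.64%, and at 30 FPKM and more 4 of 66 (6.06%) against 1.26%. The same order held in each of 5 classes of locus span, from 7 of 30 against 55 of 457 under 500 bases to 1.85% against 1.07% at 4000 bases and more. Among genes with at least 10 FPKM and 1000 bases together, the numbers were 4 of 151 (2.65%) and 92 of 9199. Several of these classes hold fewer than 10 unplaced genes past the threshold. The shares within a single condition had 1 exception: in control leaves, loci under 500 bases differed at 9 of 30 unplaced genes and at 36.5% of chromosome genes.

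**Figure D2:**
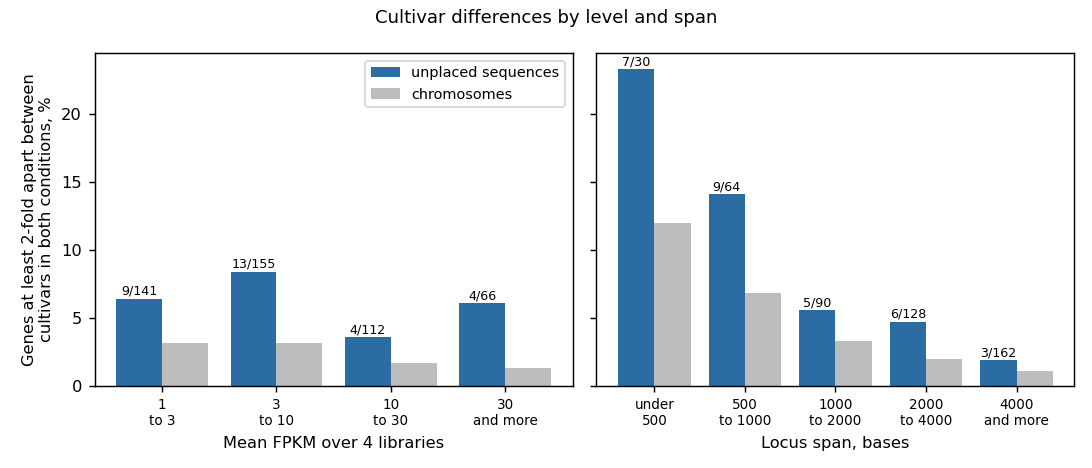
Percent of genes at least 2-fold apart between the cultivars, the same way in both conditions, by class of mean FPKM (left) and of locus span in bases (right). Blue bars are unplaced genes with their counts above, grey bars chromosome genes. The blue bar is the taller of each pair, at 8.39% against 3.16% from 3 to 10 FPKM, for example.

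Where the genes that differed between the cultivars lay on the unplaced sequences was read next. Of the 363 sequences, 208 held 1 listed gene, 71 held 2 and 84 held at least 3. The 30 genes that differed 2-fold in both conditions lay on 25 sequences. Of these, 4 carried 9 of the genes and each of the others carried 1. Only the 4 sequences with at least 2 such genes could show both directions, and 0 did. Between neighbouring genes on the same sequence, Pearson's r of the mean cultivar log2 ratio was 0.278 over 203 pairs of unplaced genes and 0.096 over 18984 pairs on chromosomes. These values describe neighbours measured in the same 4 libraries, and neighbours can also share fragments. The mean drought ratio gave 0.249 and 0.093, so the likeness of neighbours was not limited to the cultivar ratio.

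The 4 sequences were chosen after their values were seen, and KV450691.1 had the most such genes. It held 6 genes, each lower in Xinxuan048 than in KU50 in both conditions as deposited. The smallest difference, a log2 ratio of -0.04 for MANES_S063200 under drought, lay closer to 0 than the median of all genes. The difference was small at the start of the sequence, where MANES_S063100 (10888 to 11679) had 1.73 and 1.31 FPKM for KU50 against 1.04 and 0.945 for Xinxuan048. Further along, MANES_S063300 (40042 to 43401) had 6.36 and 4.57 FPKM for KU50 against 0.393 and 1.41 for Xinxuan048. The next gene, MANES_S063400 (45359 to 48937), was less far apart, with log2 ratios of -0.98 and -0.28. MANES_S063500 (55865 to 56821) had 2.71 and 3.13 FPKM against 0.142 in Xinxuan048 control and unlisted in Xinxuan048 drought. It was followed by MANES_S063600, the gene furthest towards KU50 by the mean of both conditions.

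On KV450708.1, all 3 genes were lower in Xinxuan048. MANES_S066500 (46303 to 52386) had 14.6 and 13.4 FPKM for KU50 against 0.731 and 1.70 for Xinxuan048. MANES_S066300 (27640 to 30438) had 2.11 and 1.99 FPKM in KU50 and was unlisted in Xinxuan048. MANES_S066400, between them, had 2.88 and 1.71 against 0.204 and 0.376, and missed the 2-fold limit under drought at a log2 ratio of -0.98. KV450498.1 was mixed. MANES_S026000 and MANES_S026300 were higher in KU50 in both conditions, but MANES_S026200, between them, had 11.7 and 5.31 FPKM for KU50 against 8.17 and 16.7 for Xinxuan048.

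KV450539.1 was the sequence that leaned to Xinxuan048. MANES_S034900 (39950 to 43431) had 9.38 and 11.2 FPKM for Xinxuan048 against 1.06 and 2.21 for KU50. MANES_S035100 (112650 to 116034) had 4.86 and 6.83 against 0.439 and 0.977. Of the other 5 genes there, MANES_S034700 and MANES_S035400 had log2 ratios between 0.73 and 0.98, and the remaining 3 lay between -0.23 and 0.22. A lean to one cultivar was not the rule. On KV450437.1, the sequence with the most genes (35, of which 27 passed the filter), 0 genes were 2-fold apart between the cultivars in control and 1 was under drought. KV450561.1 held 12 genes, and 3 sequences held 11 each. Of these 3, KV450676.1 had all 11 past the filter and 0 that were 2-fold apart between the cultivars in either condition.

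**Figure D3:**
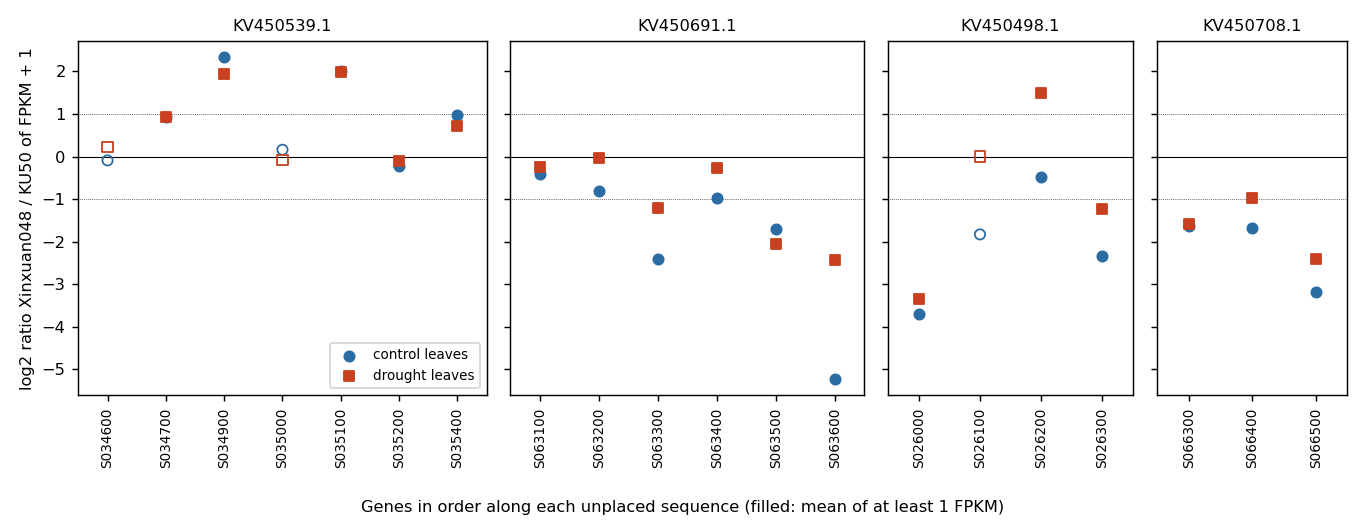
Log2 ratio of Xinxuan048 to KU50 (FPKM + 1) of each gene on the 4 unplaced sequences with 2 or more genes that differed 2-fold in control and under drought, in their order along the sequence, circles for control and squares for drought. Filled marks have a mean of at least 1 FPKM and dotted lines mark 2-fold; all 6 genes of KV450691.1 and all 3 of KV450708.1 lie below 0 with FPKM as deposited.

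Drought was the other comparison. Shares of unplaced genes 2-fold apart under drought ran from slightly under the background, in both cultivars together, to above it for genes lower in KU50. In KU50, 53 of 474 (11.2%) were at least 2-fold higher under drought, at the background of 11.0%, and 43 (9.07%) were lower, above the background of 5.67%. In Xinxuan048, 62 (13.1%) were higher, against 10.6%, and 14 (2.95%) were lower, against 2.55%. Higher in both cultivars were 19 (4.01%), against 4.65%, and lower in both were 6 (1.27%), against 1.45%. Within classes of locus span the order varied, with both directions counted. From the shortest loci up, KU50 had 36.7%, 26.6%, 27.8%, 14.1% and 15.4% of unplaced genes apart. Chromosome genes had 36.3%, 32.8%, 26.9%, 16.5% and 9.88%. In Xinxuan048 the shares were 36.7%, 20.3%, 23.3%, 11.7% and 9.88%, against 33.9%, 23.5%, 19.4%, 12.8% and 8.74%. By mean FPKM, unplaced genes were lower only at 3 to 10 in KU50 (18.1% against 18.4%) and 10 to 30 in Xinxuan048 (8.04% against 9.04%). At a 4-fold limit in either direction, 26 unplaced genes (5.49%) were apart in KU50, against 3.23% of chromosome genes, and 15 (3.16%) in Xinxuan048, against 1.46%. By definition, the 15 include the 6 unplaced genes high in Xinxuan048 drought alone, described below, and the chromosome share includes 19 such genes. The log2 ratios had a median of 0.20 for KU50 and 0.36 for Xinxuan048, beside 0.30 and 0.37 over all genes. These directions are for FPKM as deposited: with TMM scaling the medians of unplaced genes were -0.06 and 0.03, and those of all genes 0.02 and 0.00. Of the unplaced genes at least 2-fold apart under drought, 55.2% were higher in KU50 as deposited and 36.5% with TMM. In Xinxuan048 these shares were 81.6% and 59.4%, and in both cultivars together 76.0% and 44.4%.

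The drought responses of the 2 cultivars resembled each other less among unplaced genes. Of those higher under drought in KU50, 35.8% were also higher in Xinxuan048, and of those higher in Xinxuan048, 30.6% were also higher in KU50. For chromosome genes the shares were 42.4% and 44.1%. Pearson's r of the 2 drought ratios was 0.254 over 474 unplaced genes and 0.492 over 19269 chromosome genes, a description of these 4 libraries in which lower and shorter genes scatter more.

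**Figure D4:**
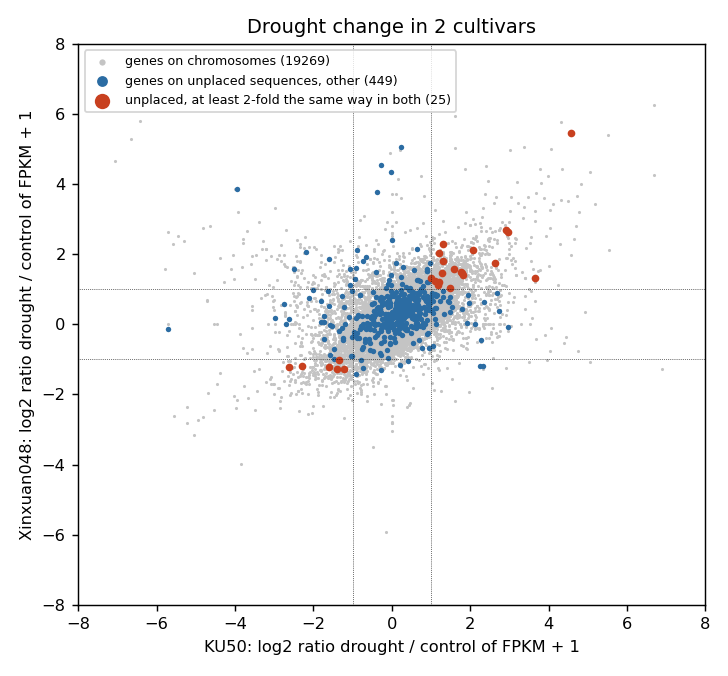
Log2 ratio of drought to control (FPKM + 1) in KU50 on the x axis and in Xinxuan048 on the y axis, 1 point per gene that averages 1 FPKM or more. Red points are the 25 unplaced genes at least 2-fold apart the same way in both cultivars, 19 higher and 6 lower under drought as deposited; blue points are the remaining unplaced genes and grey points chromosome genes.

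Among the genes with the highest shared drought ratios, MANES_S074800 and MANES_S025900 were low or unlisted in both controls and higher under drought in both cultivars. MANES_S074800, on KV450770.1, bases 17668 to 19030, had 1.72 and 20.3 FPKM for KU50, and 1.32 and 13.3 for Xinxuan048. Both drought values were far above both control values, with a shared log2 effect of 2.79 ± 0.19 (SE, 4 libraries; limma adjusted p = 0.0578). MANES_S025900, on KV450497.1, bases 179690 to 180650, was unlisted for KU50 control, at 6.53 FPKM for KU50 drought, and at 1.23 and 13.3 for Xinxuan048. The log2 effect shared by the cultivars came to 2.80 ± 0.23 (SE, 4 libraries; limma adjusted p = 0.0615). The largest effect in the fit belonged to MANES_S046400, chosen after its values were seen, a locus of 156 bases with 22.9 FPKM for KU50 drought and 42.7 for Xinxuan048 drought that was unlisted in both controls.

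At the lower end stood MANES_S061400, given above, with a shared log2 effect of -1.93 ± 0.39 (SE, 4 libraries; limma adjusted p = 0.0691). MANES_S099200, on KV451276.1, bases 6078 to 8239, had 30.2 and 5.39 FPKM for KU50, and 31.4 and 13.3 for Xinxuan048. The controls of the 2 cultivars were close, and drought was lower in both. MANES_S055800 and MANES_S024600, the lowest ratios within Xinxuan048, were also alike in the cultivars. MANES_S055800 had 13.3 and 5.09 FPKM for KU50 and 9.86 and 3.51 for Xinxuan048. MANES_S024600 had 5.38 and 1.42 for KU50 and 5.83 and 1.84 for Xinxuan048.

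For the drought effect shared by the cultivars, 0 of 474 unplaced genes passed limma at an adjusted p of 0.05, where 9 of all 19743 genes (0.0456%) did. The smallest adjusted p among unplaced genes was 0.0570, just above the threshold. It was that of MANES_S046400, the locus of 156 bases whose control values were set to 0 because it was unlisted there. At an unadjusted p of 0.05, 139 unplaced genes (29.3%) passed limma's test, fewer than the background of 37.8%. Both shares are for FPKM as deposited, where the drought ratios of all genes leaned upwards. Their medians were 0.30 for KU50 and 0.37 for Xinxuan048, and 0.02 and 0.00 with TMM scaling. The adjusted count depended on the filter and the scaling. With a filter at a mean of 5 FPKM 14 unplaced genes passed, with upper-quartile scaling 7, and 2 when loci under 500 bases were left out. The shares of all genes that passed in these settings are not given here, so these counts have no background beside them.

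Within KU50, the genes furthest apart under drought were mostly not matched in Xinxuan048. MANES_S053400, on KV450635.1, bases 20963 to 21535, had 0.448 and 17.2 FPKM for KU50, and 0.722 and 3.32 for Xinxuan048. MANES_S038300, on KV450560.1, bases 83715 to 84483, had 0.249 and 8.76 FPKM for KU50, and stayed at 0.166 and 0.0981 in Xinxuan048. MANES_S062300, on KV450687.1, bases 26948 to 34323, had 11.8 and 0.617 FPKM for KU50, against 0.0648 and 0.207 for Xinxuan048. It was thus high in 1 library of the 4.

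Genes of that kind, high in a single library, were more frequent among the unplaced genes in 3 of the 4 libraries. At least 4-fold above each other library were 5 unplaced genes in KU50 control (1.05%, background 0.314%), 4 in KU50 drought (0.844%, background 0.420%), 0 in Xinxuan048 control (background 0.0405%) and 6 in Xinxuan048 drought (1.27%, background 0.127%). The 6 of Xinxuan048 drought, chosen after their values were seen, held the pair of highest levels of this kind. MANES_S113100, 483 bases at the start of KV452411.1, had 98.6 and 115 FPKM for KU50 and 70.4 and 2380 for Xinxuan048. MANES_S113700, 1036 bases on KV452425.1, bases 2 to 1037, had 46.8 and 38.3 FPKM for KU50 and 41.4 and 986 for Xinxuan048. MANES_S091300, on KV450993.1, bases 9859 to 10455, had 9.36 and 9.24 FPKM for KU50 and 8.26 and 189 for Xinxuan048. In each of these 3 genes the other libraries lay less than 2-fold apart, with 1 far above them.

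The remaining 3 were MANES_S091000 with 109 FPKM in Xinxuan048 drought and 6.29 to 8.39 elsewhere, MANES_S113500 with 57.5 against 4.74 to 13.1, and MANES_S032400 with 4.30 and unlisted elsewhere. At the shortest loci of the files, 150 bases, 1 fragment was taken as 54.5 FPKM in Xinxuan048 drought. This unit was inferred from the FPKM values, since fragment depth is unknown. Divided by it, MANES_S113100 came to 43.7, MANES_S113700 to 18.1 and MANES_S091300 to 3.47. Other short loci lay far under the unit in this library. MANES_S032400, at 222 bases, was listed at 4.30 FPKM, and chromosome genes of 168 bases at 8.23 and 5.12. How fragments shared between copies were counted is not stated, so these quotients are not lower bounds. The real fragment numbers are not known. Of the 19 chromosome genes with the same pattern, 16 spanned under 500 bases, against 3 of the 6 unplaced genes. Whether these values arose in the plants or in the library was not tested. Without the 6 genes, 78 in place of 84 unplaced genes were 2-fold apart between the cultivars under drought. This fall was fixed by how the 6 were chosen, since each stood at least 4-fold above KU50 drought.

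**Figure D5:**
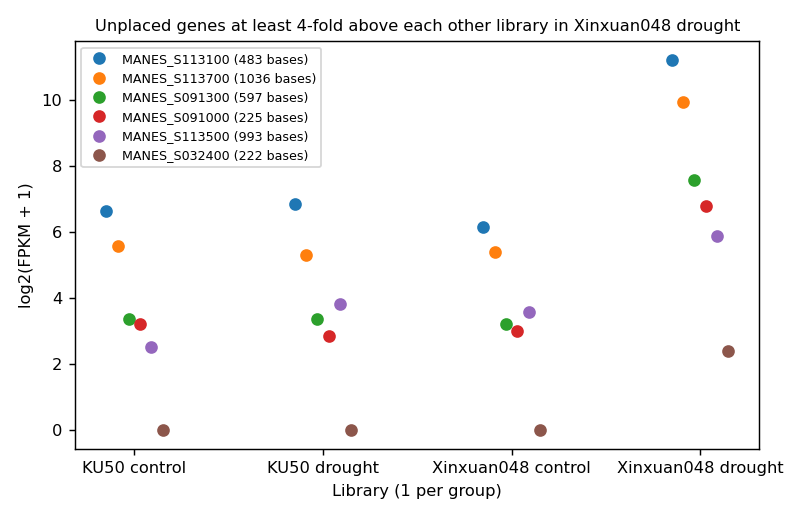
Level of the 6 unplaced genes at least 4-fold above each other library in Xinxuan048 drought, as log2(FPKM + 1), in the 4 libraries, 1 point per gene and library. The other 3 libraries lie less than 2-fold apart except for MANES_S113500, with 4.74 to 13.1 FPKM, and a point at 0 is unlisted; MANES_S113100 reaches 2380 FPKM in Xinxuan048 drought.

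A few unplaced genes had opposite drought ratios in the cultivars. Lower in KU50 and higher in Xinxuan048, by 2-fold or more each, were 6 (1.27%, background 0.740%), and the reverse held for 2 (0.422%, background 0.106%). MANES_S095100, on KV451113.1, bases 10512 to 11947, was at 14.6 FPKM for KU50 control and 13.6 for Xinxuan048 drought and was unlisted in the other 2 libraries. It therefore also counts at both ends of the cultivar ratios, with a log2 ratio of -3.96 in control and 3.87 under drought.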

How the data were processed

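Leaf RNA of 2 cassava cultivars was sequenced in 4 libraries, 1 per cultivar and condition. The authors deposited FPKM, 1 value per gene and library, per the file headers. The submitters' processing notes name TopHat2 2.0.12 and Cufflinks, with no role or settings; no source used here states the build or annotation. FPKM totals lay between 611226 and 636034, and fragment depth is unknown. Deposited locus starts count from 0, as 1 gene starts at 0, and are printed counted from 1. Files were joined by tag, and a gene absent from a file was set to 0 FPKM. The fit used limma 3.58.1 in R 4.3.3 on log2(FPKM + 1) with cultivar and drought as additive terms, a variance trend and 2.99 prior degrees of freedom, over 19743 genes past the filter at 1 FPKM on average. P-values are two-sided and Benjamini-Hochberg adjusted over these genes. The fit was run on simulated data with independent noise, no cultivar effect and drought effects alike in both cultivars. That run does not cover shifts shared over a library or responses that differ between cultivars. TMM was computed unweighted, with 30% of ratios trimmed at each end and 5% of levels. Named genes were, per comparison, the 2 highest and 2 lowest log2 ratios among unplaced genes with at least 5 FPKM in a library compared and 500 bases; the 4 highest by mean; the 2 highest listed in each cultivar only; the sequences with most genes; and the 2 largest opposite responses of each kind. Exceptions are marked. The genes and lists were chosen with earlier results of these data known.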

Additional observations from a re-analysis of the deposited data

Results flagged for a closer look

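At 8 unplaced genes the drought ratios of the cultivars were 2-fold or more in opposite directions, and no test was made of these differences. Given as the log2 drought ratio of Xinxuan048 minus that of KU50, MANES_S095100 differed by 7.83. MANES_S050000, with 4.29 and 0.153 FPKM for KU50 and 0.156 and 3.85 for Xinxuan048, control first, differed by 4.26. MANES_S014900 differed by -3.52, with 4.03 FPKM in KU50 drought and 1.28 in Xinxuan048 control and unlisted elsewhere. Another gene shares its deposited locus. MANES_S038200 differed by -3.43, with 0.926 and 8.12 FPKM for KU50 and 2.21 and 0.413 for Xinxuan048. Of the remaining genes, all lower in KU50 and higher in Xinxuan048 under drought, MANES_S041700 differed by 4.09, MANES_S092100 by 3.45, MANES_S034100 by 2.67 and MANES_S045100 by 2.17.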

How the results depend on the processing

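No paired analysis was possible because each group holds 1 library and no replicate number pairs libraries beyond the additive fit, which already compares drought within cultivars and cultivars within conditions. Leaving out a library leaves the additive fit no residual degree of freedom. The counts of unplaced genes 2-fold apart moved most with the pseudocount, the filter and the fold, here in the order drought in KU50 (96), drought in Xinxuan048 (76), cultivar in control (87) and cultivar under drought (84). A pseudocount of 5 gave 38, 18, 36 and 33, keeping genes that average 5 FPKM or more gave 49, 38, 42 and 38, and a 4-fold limit gave 26, 15, 33 and 28. With a pseudocount of 0.1 drought in Xinxuan048 gave 125. The 30 genes apart between cultivars in both conditions became 51 with a pseudocount of 0.1, 13 with 5, 16 with the stricter filter and 9 at 4-fold. The 25 apart under drought in both cultivars became 49, 8, 18 and 4 in that order. The 21 listed in one cultivar only became 13 for loci of at least 500 bases. They became 7 where one cultivar needed at least 1 FPKM and the other was unlisted or under 0.1 FPKM. The like shares of chromosome genes are not given here. The shared drought effect, called at 0 unplaced genes, was called by limma at 7 with upper-quartile scaling and 14 with the stricter filter. It was called at 2 for loci of at least 500 bases. The cultivar effect was called at 0 unplaced genes in each setting. Shares of all genes called for drought in these settings are not given here. The share of unplaced genes 2-fold apart between cultivars in both conditions was 2.24 to 4.75 times that of chromosome genes over all settings tried, and that under drought in both cultivars 0.77 to 1.29 times. For drought in one cultivar it was 1.16 to 1.70 times in KU50 and 0.94 to 2.16 times in Xinxuan048, highest at the 4-fold limit in both. In Xinxuan048 that limit counts the 6 genes high in its drought library alone, which pass it by definition. Of genes 2-fold apart between cultivars in both conditions, 9 of 30 were higher in Xinxuan048 as deposited and 13 of 33 with TMM or upper-quartile scaling.

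The share of FPKM in unplaced genes, for KU50 control, KU50 drought, Xinxuan048 control and Xinxuan048 drought, was 1.41%, 1.44%, 1.42% and 1.75% for loci of at least 500 bases. It was 1.78%, 1.76%, 1.87% and 2.19% without genes averaging at least 300 FPKM. Without the 6 genes high in Xinxuan048 drought, an alternative chosen after seeing the data, it was 1.43%, 1.50%, 1.46% and 1.51%. The reason for these moves was not tested, beyond fewer genes being left to count.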
